A study of Homo sapiens with 8 samples.

Results

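The endoplasmic reticulum (ER) stress, amino acid response and chaperone genes are a fixed list of 36 genes, found by their symbols among the 58870 genes of a table of RNA sequencing counts. All 36 were present once. By role they are 16 ER chaperones and folding enzymes, 4 genes of ER-associated degradation, 6 stress sensors and ER stress transcription factors, and 10 genes of the ATF4 arm (ATF4 itself and genes known as its targets). The samples were CFPAC-1 cells, a long-established line from a human pancreatic ductal adenocarcinoma. In 4 of them the cells carried an empty vector and in the other 4 an ADRA2A transgene, which overexpresses the alpha-2A adrenergic receptor, a receptor for adrenaline and noradrenaline that lowers cyclic AMP. All 8 samples were grown for 72 hours in IMDM with 10% fetal bovine serum and 1% penicillin and streptomycin, and the labels give no other treatment. The labels give neither the promoter of the transgene nor whether the 4 samples of a group were separate cultures or clones, so p-values measure only the spread between these samples, which may be technical. In bulk RNA, fewer cells with a transcript and less of it per cell cannot be told apart.

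The ER folds secreted and membrane proteins with the chaperone BiP (the product of HSPA5), its partners, lectin chaperones and disulfide isomerases. When unfolded proteins build up, the sensors IRE1 (ERN1, and ERN2 in mucous epithelia), PERK (EIF2AK3) and ATF6 start the unfolded protein response: IRE1 splices the XBP1 message, ATF6 is cut to release a transcription factor, and PERK phosphorylates eIF2 alpha, which slows translation and favours that of ATF4. Amino acid shortage reaches ATF4 through another eIF2 kinase, GCN2, so ATF4 targets such as ASNS, PSAT1 and TRIB3 answer to both kinds of stress.

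The promoters of the 36 genes were searched for the known elements of these responses, and matches are shown for some genes of the roles compared below. The ER stress response element (ERSE) was searched as CCAAT, then any 9 bases, then CCACG, and its second form (ERSE-II) as ATTGG, any base, then CCACG. The element of C/EBP and ATF4 dimers (CARE) was searched as TGATGNAA, the unfolded protein response element (UPRE) as TGACGTGG and the cAMP response element as TGACGTCA, all on both strands. The windows were RefSeq promoters of GRCh38.p14, from 250 bases before to 50 after a start site. They covered 34 of the 36 genes, with ERN2 and PDIA3 not matched. ERSE was found in 8 of these 34 genes and in 25 of 27305 genes with a promoter in the table (0.0769% of 35116 promoters). Its 8 genes were HSPA5, HSP90B1, CALR, CANX, PDIA6, CRELD2, ERO1B and XBP1, of which 4 are printed: 3 chaperone genes and XBP1. By role, ERSE was in 7 of 15 chaperone and folding genes and in 1 of 5 sensor and factor genes. It was in 0 of 4 degradation genes and 0 of 10 genes of the ATF4 arm. The sequences run 5′ to 3′ on the gene's strand, and capitals mark the searched letters. They lie at chr9:125241376-125241449, minus strand, for HSPA5, chr19:12938359-12938417, plus strand, for CALR, chr5:179698773-179698801, plus strand, for CANX, and chr22:28800588-28800661, minus strand, for XBP1.
HSPA5: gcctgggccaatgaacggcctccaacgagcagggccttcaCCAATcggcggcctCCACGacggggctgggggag
CALR: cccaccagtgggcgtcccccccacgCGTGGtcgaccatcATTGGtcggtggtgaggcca
CANX: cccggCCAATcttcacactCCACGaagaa
XBP1: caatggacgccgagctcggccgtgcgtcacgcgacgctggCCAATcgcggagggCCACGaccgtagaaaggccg
In CALR the element is on the other strand, so it reads CGTGG, 9 bases, ATTGG.

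ERSE-II was found in SDF2L1, HYOU1 and HERPUD1, that is in 3 of the 34 genes and in 0.0696% of the 27305 genes with a promoter. In HYOU1, 1 of the 2 copies overlapped the only UPRE match among the 34 genes (0.927% of the 27305 genes). CARE was found in HERPUD1, ASNS and CHAC1 and in 4.46% of the 27305 genes, and the cAMP response element in PPP1R15A and in 2.25%. The sequences below show the ERSE-II of a chaperone gene (SDF2L1, chr22:21642074-21642139, plus strand), a promoter with both kinds of element (HERPUD1, chr16:56931926-56932050, plus strand) and the CARE of a pair of ATF4 targets (ASNS, chr7:97872458-97872487, minus strand, and CHAC1, chr15:40953251-40953280, plus strand).
SDF2L1: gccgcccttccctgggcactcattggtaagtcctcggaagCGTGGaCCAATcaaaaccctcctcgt
HERPUD1: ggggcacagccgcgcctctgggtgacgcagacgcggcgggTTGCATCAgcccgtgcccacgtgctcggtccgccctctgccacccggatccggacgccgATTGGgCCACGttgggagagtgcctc
ASNS: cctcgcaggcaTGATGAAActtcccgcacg
CHAC1: ctcccctgccgTTGCATCActcctgccagg
In SDF2L1 the element is on the other strand, as is the CARE of HERPUD1 and of CHAC1, which reads TTGCATCA there. A match is a string of letters and was not tested as a binding site.

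Depth lay between 14427035 and 17528915 counts per library. ADRA2A itself had 0 counts in the 4 empty-vector libraries, which allows at most 0.174 to 0.204 CPM (a gene's counts scaled to a common library size, with TMM factors) at 3 counts per library, and 112, 142, 154 and 172 counts in the 4 ADRA2A libraries. The duct keratin gene KRT19 stood at 2826 ± 104 CPM in the empty-vector cells (SD, n = 4). The 9 duct markers summed to 12114 to 12685 CPM in the empty-vector and 12041 to 13093 CPM in the ADRA2A libraries. Summed over their lists, pancreatic acinar markers reached at most 0.949 CPM, fibroblast markers 2.49 CPM and endothelial markers 3.35 CPM in any library. Leukocyte markers summed to 121 to 133 CPM in the empty-vector and 199 to 212 CPM in the ADRA2A libraries, mostly through CD68 and LYZ, while CD3E had 0 counts in all 8 libraries and PTPRC at most 4. The part of that shift in the results was not tested. Genes were compared by the quasi-likelihood test of edgeR, with Benjamini-Hochberg adjustment over the 14785 genes that passed the filter on low counts.

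All 36 genes passed that filter, with 79 counts in the lowest library of any of them (CHAC1). At an adjusted p-value under 0.05, 11 rose and 11 fell in the ADRA2A cells and 14 were not called. Of all genes tested, 42.7% were called, 21.6% as higher and 21.1% as lower, and among tested genes averaging 50 counts or more, as all 36 do, 46.5% were called. The median log2 fold change of the 36 genes was -0.01, against 0.00 for all genes tested, and the median absolute value was 0.16, against 0.18. The libraries of the groups lay fully apart for 19 of the 36 genes, where 39.2% of all genes tested did so. The 22 genes called are a larger share of the list than the called genes are of all tested, a difference that was not tested, and the median absolute fold change was no larger than that of all genes. The counts differed by role. Of the sensors and transcription factors 4 of 6 were higher and 0 lower. Of the degradation genes 3 of 4 were higher and 0 lower. Of the chaperones and folding enzymes 3 of 16 were higher and 7 lower, and of the ATF4 arm 1 of 10 was higher and 4 lower. The median log2 fold changes were 0.31, 0.15, -0.03 and -0.19 in the same order. Differences between these 4 roles were not tested.

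**Figure D1:**
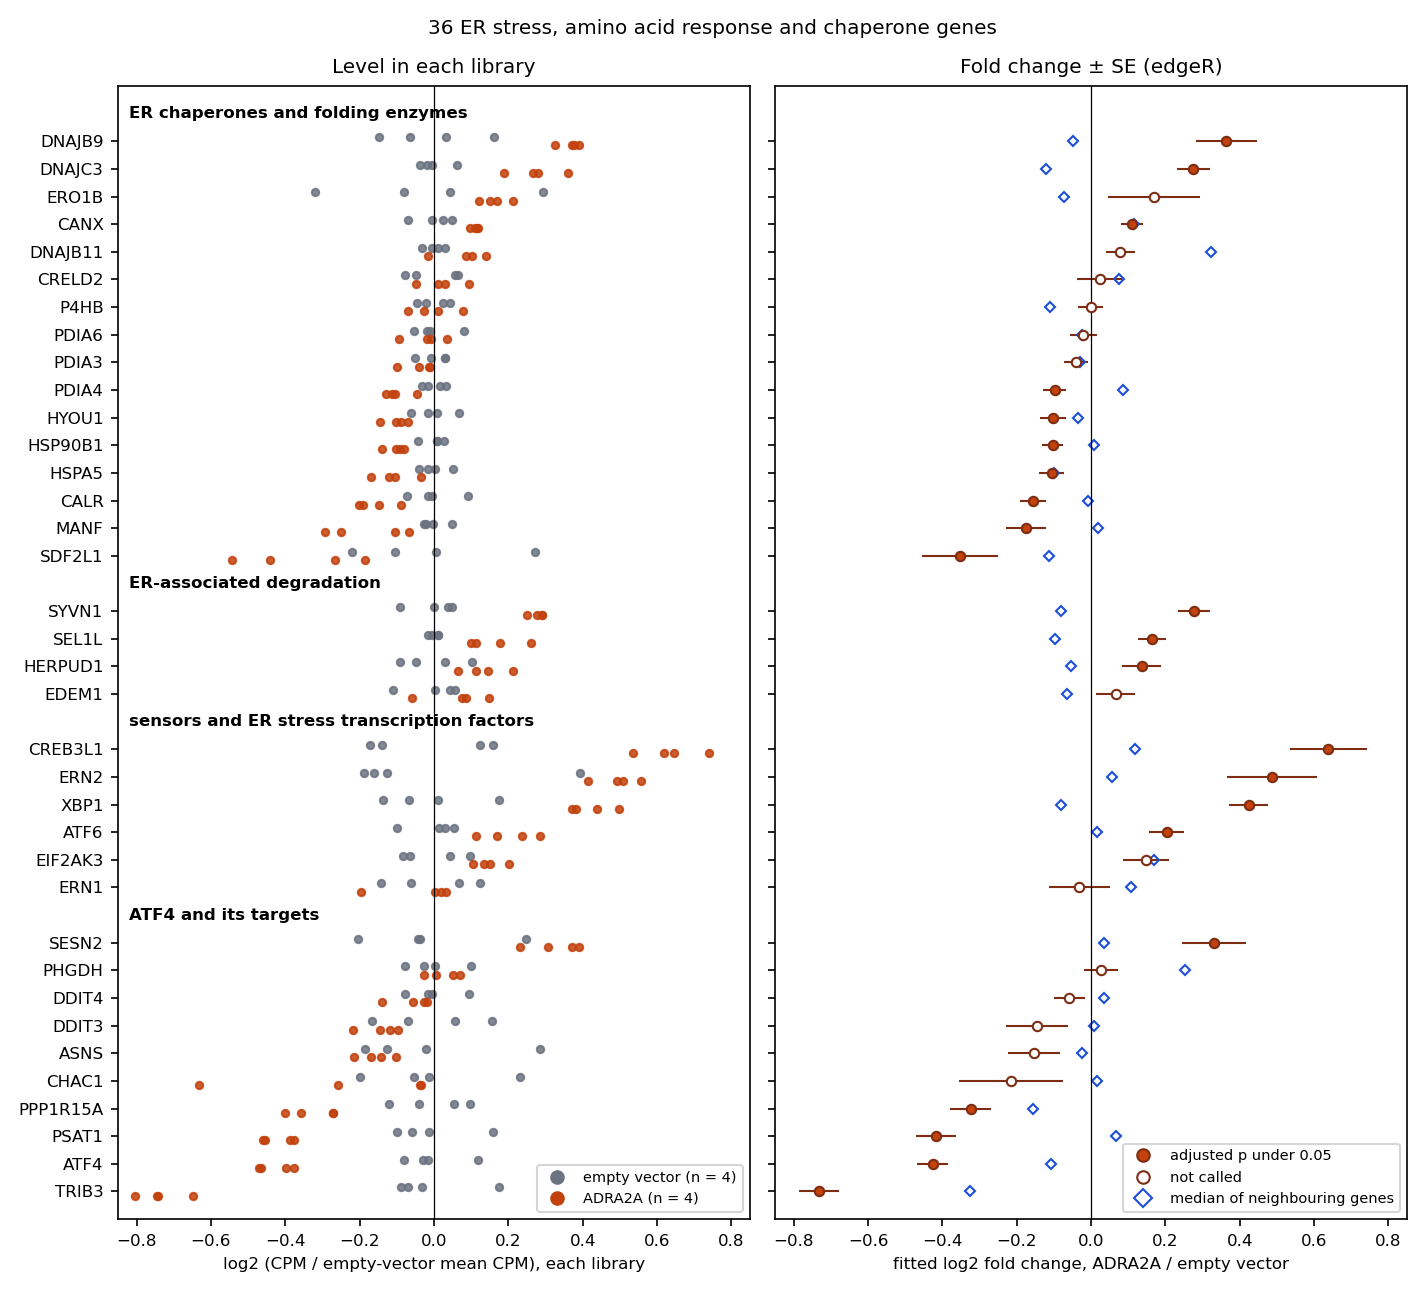
The 36 genes by role, with each library's log2 CPM relative to the gene's empty-vector mean (left; grey, empty vector; orange, ADRA2A) and the fitted log2 fold change with its SE (right; filled circles, adjusted p under 0.05; blue diamonds, median log2 fold change of the neighbouring tested genes, 20 per gene except 15 for TRIB3 and 18 for EDEM1). Fold changes run from -0.73 for TRIB3 to 0.64 for CREB3L1, and the sensor and degradation genes called all lie to the right of 0.

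Among the transcription factors, XBP1 and CREB3L1 were higher in every ADRA2A library than in any empty-vector library. XBP1 (ENSG00000100219.16; chromosome 22, 28794555 to 28800597, minus strand) encodes the factor whose message IRE1 splices, and which turns on folding and degradation genes. It stood at 125, 139.7, 112 and 118 CPM in empty-vector replicates 1 to 4 and at 175, 161, 159.9 and 167 CPM in ADRA2A replicates 1 to 4. The groups did not overlap, and the mean went from 124 ± 11.8 to 166 ± 6.80 CPM (SD, n = 4 each; log2 fold change 0.42 ± 0.05, SE; adjusted p = 2.30e-06). These are counts of the whole gene, and the spliced and unspliced forms of XBP1 were not analysed here. CREB3L1 (ENSG00000157613.10; chromosome 11, 46277662 to 46321409, plus strand) encodes OASIS, a membrane-bound factor of the ATF6 kind that is cut at the Golgi. It had the highest fold change of the 36 genes, at low abundance: 6.91, 8.69, 8.48 and 7.07 CPM in the empty-vector libraries and 12.2, 11.3, 13.00 and 11.95 CPM in the ADRA2A libraries (log2 fold change 0.64 ± 0.10, SE; adjusted p = 5.32e-05). The lowest ADRA2A library lay above the highest empty-vector library.

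Of the 4 sensor genes, ERN2 and ATF6 rose. ERN2 encodes IRE1 beta, the sensor form of mucous epithelia, and averaged 8.12 ± 1.70 CPM in the empty-vector and 11.4 ± 0.469 CPM in the ADRA2A libraries (SD, n = 4; log2 fold change 0.49 ± 0.12, SE; adjusted p = 0.00286). Empty-vector replicate 1 stood apart at 10.7 CPM, against 7.13 to 7.44 CPM in the other 3 empty-vector libraries, and without it the log2 fold change of ERN2 was 0.65. ERN2 overlaps PLK1 on the opposite strand by 58 bases. ATF6 went from 81.03 ± 3.71 to 93.3 ± 4.90 CPM (log2 fold change 0.20 ± 0.05, SE; adjusted p = 0.00177), and its groups did not overlap. EIF2AK3, the PERK gene, was at 26.00 to 29.5 CPM in the empty-vector and 29.6 to 31.7 CPM in the ADRA2A libraries. These ranges did not overlap, but the difference was not called (log2 fold change 0.15 ± 0.06, SE; adjusted p = 0.0595). It was called without empty-vector replicate 3 (adjusted p = 0.0329). ERN1, which encodes the widespread form IRE1 alpha, was at 18.99 ± 1.59 and 18.6 ± 1.34 CPM (SD, n = 4 each), a difference smaller than the spread between replicates (log2 fold change -0.03 ± 0.08, SE; adjusted p = 0.786).

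Because ERN2 is a gene of mucous cells, markers of such cells were set beside it. Of 12 markers 8 were tested, and 6 rose and 0 fell in the ADRA2A cells. Of all genes tested, 21.6% were called as higher and 21.1% as lower. The markers were chosen with earlier results of these data known. Their summed level was 867 to 946 CPM in the empty-vector libraries and 1045 to 1163 CPM in the ADRA2A libraries. AGR3, SPDEF and MUC5B had the smallest p-values, with log2 fold changes of 1.57, 0.41 and 1.57, whereas TFF3 had 0 counts in all 8 libraries and MUC2 at most 4. The part of this shift in the levels of ERN2, CREB3L1 and XBP1 was not tested.

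Of the degradation genes, whose products draw misfolded proteins out of the ER for the proteasome, SYVN1, SEL1L and HERPUD1 rose, by less than XBP1. SYVN1 (ENSG00000162298.18; chromosome 11, 65121780 to 65134532, minus strand) encodes HRD1, the ubiquitin ligase at the centre of the export complex. It was at 67.99, 66.3, 68.5 and 62.2 CPM in the empty-vector libraries and at 81.04, 78.8, 80.3 and 81.1 CPM in the ADRA2A libraries, with no overlap (log2 fold change 0.28 ± 0.04, SE; adjusted p = 3.84e-05). SEL1L (ENSG00000071537.14; chromosome 14, 81471547 to 81533853, minus strand), which encodes the adaptor that holds HRD1 in place, was at 226, 228, 228 and 224 CPM and at 256, 245, 243 and 272 CPM, again with no overlap (log2 fold change 0.16 ± 0.04, SE; adjusted p = 0.00156). SYVN1 overlaps MRPL49 on the opposite strand and FAU on its own. In all 8 libraries its estimated count was not whole, as happens when reads are divided between genes. MRPL49 and FAU were not called (adjusted p = 0.478 and 0.391).

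HERPUD1, an ER membrane protein gene of the same complex, was called as higher but near the threshold (56.8 ± 3.41 to 62.4 ± 2.69 CPM, SD, n = 4 each; log2 fold change 0.14 ± 0.05, SE; adjusted p = 0.0397), and its groups overlapped. The call was lost with DESeq2 (adjusted p = 0.0589) and with upper quartile factors (0.0708). It was also lost without empty-vector replicate 1, 3 or 4 (adjusted p = 0.108, 0.130 and 0.0545) and without ADRA2A replicate 1, 3 or 4 (0.124, 0.0762 and 0.0507). EDEM1, a mannosidase-like gene that marks glycoproteins for removal, was at 58.7 ± 3.04 and 61.4 ± 3.64 CPM and was not called (adjusted p = 0.334).

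The chaperones and folding enzymes make up most of the list's RNA, and their changes were small. Their summed level was 7892 to 8369 CPM in the empty-vector libraries and 7663 to 8097 CPM in the ADRA2A libraries, and these ranges overlapped. HSPA5 (ENSG00000044574.8; chromosome 9, 125234853 to 125241382, minus strand), the BiP gene and the usual readout of ER stress, was at 722, 735, 769.5 and 743 CPM in the empty-vector libraries. It was at 691, 683, 725 and 660.4 CPM in the ADRA2A libraries, where replicate 3 lay above empty-vector replicate 1. Its decrease was called (log2 fold change -0.11 ± 0.03, SE; adjusted p = 0.0141), though not without empty-vector replicate 3 (adjusted p = 0.0510).

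The other chaperone genes that fell were SDF2L1, MANF, CALR, HSP90B1, HYOU1 and PDIA4. CALR, which encodes the lectin chaperone calreticulin, was at 821, 860.1, 921 and 854 CPM in the empty-vector and 757, 779.8, 813 and 751 CPM in the ADRA2A libraries, with no overlap (log2 fold change -0.16 ± 0.04, SE; adjusted p = 0.00159). HSP90B1, the gene of the ER chaperone GRP94, went from 1475 ± 29.98 to 1372 ± 23.9 CPM (log2 fold change -0.10 ± 0.03, SE; adjusted p = 0.00496), and PDIA4, a disulfide isomerase gene, from 616 ± 12.9 to 576 ± 14.5 CPM (log2 fold change -0.10 ± 0.03, SE; adjusted p = 0.0146). Neither overlapped between the groups. HYOU1 encodes a large Hsp70-like partner of BiP and went from 288 ± 10.8 to 269 ± 6.01 CPM (log2 fold change -0.10 ± 0.04, SE; adjusted p = 0.0253). Its call was lost without empty-vector replicate 3 or 4 (adjusted p = 0.0925 and 0.0590) or ADRA2A replicate 2 (0.0841). MANF, the gene of a secreted BiP cofactor, went from 56.2 ± 1.33 to 49.8 ± 3.76 CPM (log2 fold change -0.17 ± 0.05, SE; adjusted p = 0.0131), and its call was lost without ADRA2A replicate 1 (adjusted p = 0.0576). SDF2L1, whose product works with the ER J proteins, had the largest decrease of the chaperone genes, from 20.3 ± 3.05 to 15.9 ± 1.78 CPM (log2 fold change -0.35 ± 0.10, SE; adjusted p = 0.00864), with groups that overlapped.

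The 3 folding genes that rose were DNAJC3, DNAJB9 and CANX. DNAJC3 (ENSG00000102580.15; chromosome 13, 95677139 to 95794988, plus strand), which encodes the BiP co-chaperone ERdj6, was at 83.7, 81.7, 87.5 and 82.8 CPM in the empty-vector libraries and 102, 95.7, 101 and 108 CPM in the ADRA2A libraries (log2 fold change 0.27 ± 0.04, SE; adjusted p = 4.53e-05). DNAJB9 (ENSG00000128590.5; chromosome 7, 108569867 to 108574850, plus strand) encodes ERdj4, a co-chaperone that binds IRE1. It was at 15.6, 12.6, 14.3 and 13.4 CPM and 17.5, 18.1, 18.3 and 18.1 CPM (log2 fold change 0.36 ± 0.08, SE; adjusted p = 0.00132). Both pairs of groups lay apart. CANX, the gene of the membrane-bound lectin chaperone calnexin, went from 1447 ± 50.6 to 1561 ± 10.4 CPM without overlap (log2 fold change 0.11 ± 0.03, SE; adjusted p = 0.00491). Calnexin and calreticulin handle the same sugar-tagged proteins, and their genes moved in opposite directions by similar amounts. The 20 tested genes around CANX had a median log2 fold change of 0.12, close to that of CANX, and those around HSPA5 one of -0.10, close to that of HSPA5. Whether the neighbourhood has a part in either was not tested.

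The remaining 6 folding genes were not called. They were P4HB and PDIA6, PDIA3 and ERO1B, all of disulfide formation, with DNAJB11, a BiP co-chaperone gene, and CRELD2, of a secreted stress-induced protein. Their log2 fold changes lay between -0.04 for PDIA3 and 0.17 for ERO1B, with adjusted p-values from 0.120 for DNAJB11 to 0.983 for P4HB. DNAJB11 was called as higher without ADRA2A replicate 4 (adjusted p = 0.0285), and all 20 of its tested neighbours on chromosome 3 had positive log2 fold changes, their median being 0.32. ERO1B, at 7.32 ± 1.30 and 8.19 ± 0.217 CPM, was the scarcest of the 16 and overlaps GPR137B on the opposite strand. GPR137B averaged 6.63 CPM and was called as higher (log2 fold change 0.45; adjusted p = 0.00412). So was ALG12, which overlaps CRELD2 on the opposite strand (log2 fold change 0.21; adjusted p = 0.0102). The part of these overlaps in the levels of ERO1B and CRELD2 was not tested. Estimated counts of PDIA3 and DNAJB11 were not whole in any library.

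Genes with a match to an ER stress element in the promoter were called in both directions. Among the 7 chaperone genes with ERSE, HSPA5, HSP90B1 and CALR were called as lower and CANX as higher, while PDIA6, CRELD2 and ERO1B were not called. The 8th gene, XBP1, was higher. Of the 3 genes with ERSE-II, SDF2L1 and HYOU1 were lower and HERPUD1 higher. Among called chaperone genes with no match to either, MANF and PDIA4 were lower and DNAJC3 and DNAJB9 higher. The search took exact letters in short windows, so a gene without a match may still have an element. Whether a match goes with a direction was not tested.

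In the ATF4 arm 4 genes fell, among them the gene with the largest change of all 36. ATF4 (ENSG00000128272.14; chromosome 22, 39519695 to 39522683, plus strand) was at 316, 363, 328 and 331 CPM in the empty-vector libraries and at 258, 241, 254 and 242 CPM in the ADRA2A libraries. All 4 ADRA2A libraries lay below all 4 empty-vector libraries (log2 fold change -0.43 ± 0.04, SE; adjusted p = 6.70e-08). Since ATF4 is controlled largely at translation, its message need not follow its protein. TRIB3 (ENSG00000101255.11; chromosome 20, 362835 to 397559, plus strand), a pseudokinase gene that is a target of ATF4 and CHOP, fell most of the 36 genes. It was at 144, 173, 146 and 149.6 CPM in the empty-vector libraries and at 91.4, 91.3, 97.6 and 87.6 CPM in the ADRA2A libraries, 0.602 times the level (log2 fold change -0.73 ± 0.05, SE; adjusted p = 1.13e-09). TRIB3 lies near the end of chromosome 20, so that only 15 tested genes stood within 10 places of it, from 270863 to 1378735. Of these, 14 had negative log2 fold changes, and the median of the 15 was -0.33. TRIB3 lay -0.41 from that median (log2). The part of the neighbourhood in its decrease was not tested.

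PSAT1, a serine synthesis enzyme gene, was at 78.2, 93.6, 83.1 and 80.4 CPM in the empty-vector and 60.97, 64.1, 64.6 and 61.2 CPM in the ADRA2A libraries (log2 fold change -0.42 ± 0.05, SE; adjusted p = 2.80e-06). PPP1R15A encodes GADD34, the phosphatase subunit that reverses eIF2 alpha phosphorylation, and was at 52.7, 56.3, 57.98 and 49.9 CPM and 44.9, 41.05, 44.9 and 42.3 CPM (log2 fold change -0.32 ± 0.06, SE; adjusted p = 9.17e-05). In both genes the groups lay apart. The 20 tested neighbours of PPP1R15A had a median log2 fold change of -0.16. SESN2, which encodes the leucine-binding sestrin 2, an inhibitor of mTORC1, was the single member of the arm that rose, from 18.7 ± 2.51 to 23.4 ± 1.15 CPM (log2 fold change 0.33 ± 0.09, SE; adjusted p = 0.00384). Its groups overlapped through empty-vector replicate 2, at 22.2 CPM.

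**Figure D2:**
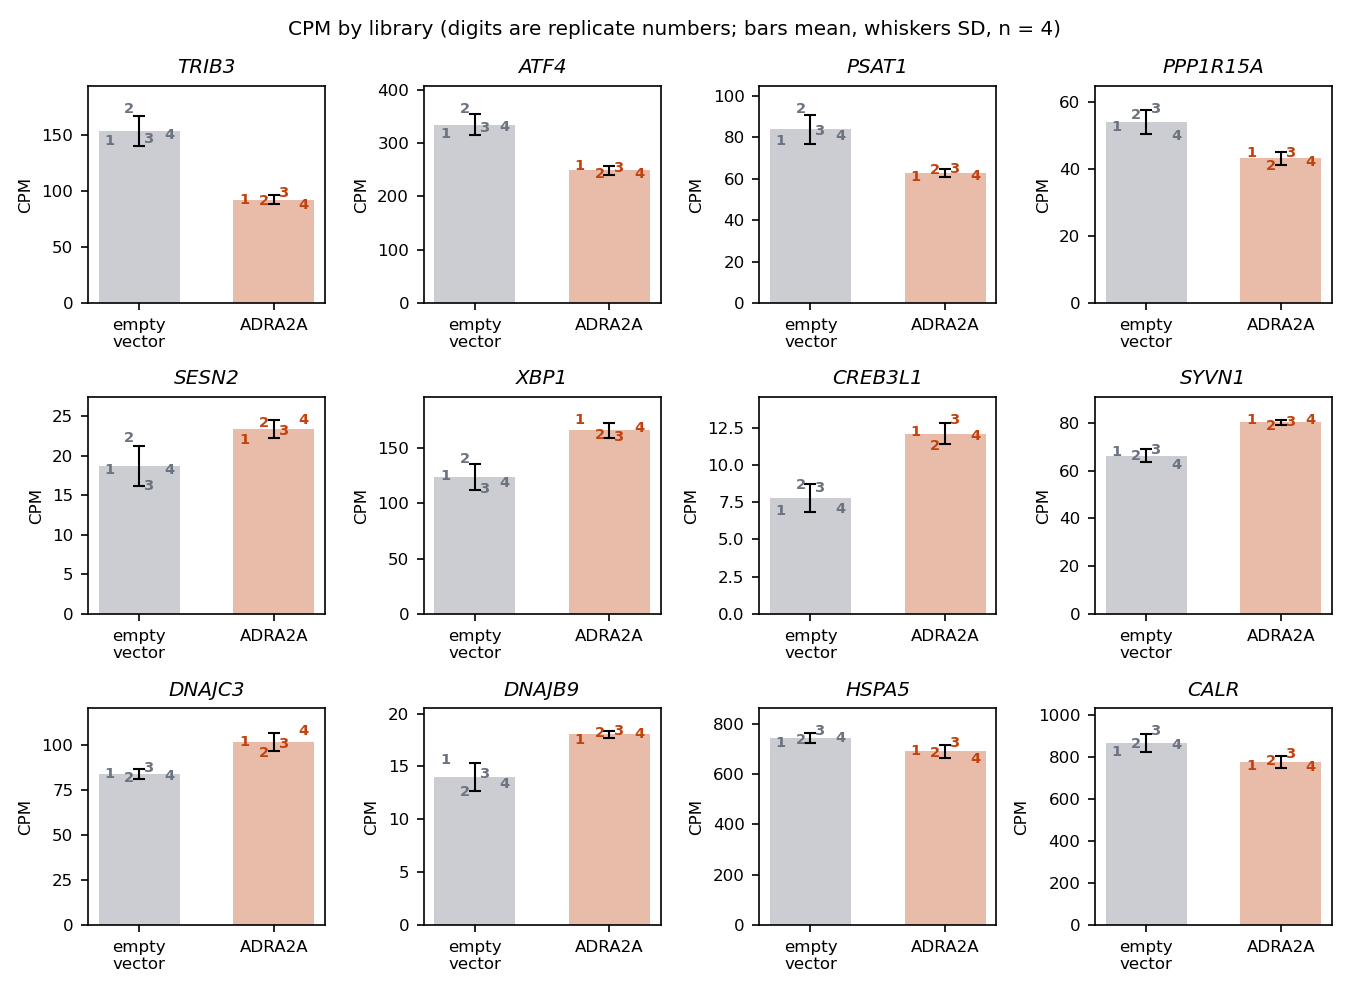
CPM of 12 of the 36 genes in each library, with replicate numbers as digits, bars for the mean and whiskers for the SD (n = 4 per group; axes start at 0). TRIB3, ATF4, PSAT1 and PPP1R15A are lower and XBP1, CREB3L1, SYVN1, DNAJC3 and DNAJB9 higher in all 4 ADRA2A libraries, while HSPA5 overlaps between the groups.

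The other 5 genes of the arm were not called. DDIT3 (ENSG00000175197.12; chromosome 12, 57516588 to 57521737, minus strand) encodes CHOP, the factor tied to cell death under lasting ER stress. It was at 15.9, 17.03, 19.9 and 18.6 CPM and 16.5, 16.7, 16.1 and 15.4 CPM, and the groups overlapped (log2 fold change -0.15 ± 0.08, SE; adjusted p = 0.172). DDIT3 overlaps MARS and MBD6 on the opposite strand, both more abundant, with log2 fold changes of -0.21 and 0.26. ASNS, the asparagine synthetase gene, was at 107, 143, 103 and 115 CPM in the empty-vector and 104, 106, 109 and 101 CPM in the ADRA2A libraries, where empty-vector replicate 2 lay far above the rest of its group (log2 fold change -0.15 ± 0.07, SE; adjusted p = 0.0895). ASNS was called as lower with no filter on low counts (adjusted p = 0.00428) and without empty-vector replicate 1 (0.0423) or 3 (0.0200). Without empty-vector replicate 2, the high library, its log2 fold change was -0.05 (adjusted p = 0.464). ASNS overlaps AC079781.5 on its own strand by 20855 bases, and its estimated count was not whole in any of the 8 libraries. AC079781.5 was not called (adjusted p = 0.641). CHAC1, a glutathione-degrading enzyme gene, was at 7.74 ± 0.986 and 6.64 ± 1.21 CPM (adjusted p = 0.228). DDIT4, whose product REDD1 restrains mTORC1, was at 169 ± 8.50 and 162 ± 6.21 CPM (adjusted p = 0.282). PHGDH, which catalyses the first step of the serine pathway that PSAT1 continues, was at 78.8 ± 4.11 and 80.3 ± 2.47 CPM (adjusted p = 0.678). Its 20 tested neighbours had a median log2 fold change of 0.25.

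The chaperone genes and the ATF4 arm also varied differently between libraries of the same group. Empty-vector replicate 3 was the highest of its group for 13 of the 16 chaperone and folding genes, and ADRA2A replicate 3 for 12 of the 16. The differences were small, with median log2 deviations from the group mean of 0.048 and 0.054. For how many of all tested genes each library was highest was not counted, so these counts do not show a trait of the list. Empty-vector replicate 2 was the highest of its group for 8 of the 10 genes of the ATF4 arm and for 0 of the 16 chaperone genes. The summed level of the ATF4 arm was 1142 CPM in that library and 977 CPM in the lowest of its group. The ADRA2A libraries kept within 820.7 to 866 CPM, below all 4 empty-vector libraries. Between replicates the median coefficient of variation of the 36 genes was 5.19% in the empty-vector and 3.97% in the ADRA2A group.

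**Figure D3:**
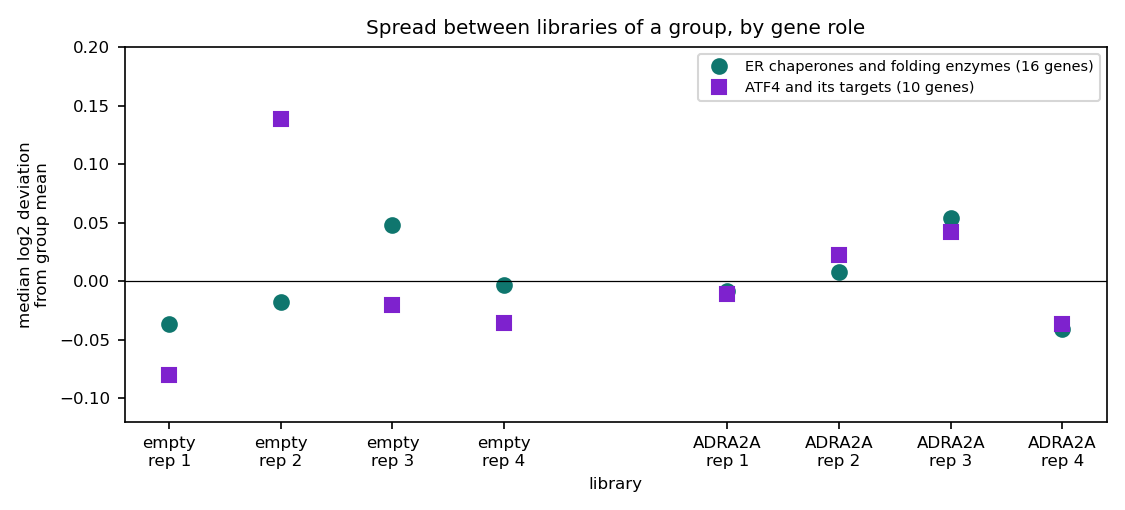
Median log2 deviation of each library from its group mean, over the 16 chaperone and folding genes (circles) and the 10 genes of the ATF4 arm (squares). Empty-vector replicate 2 stands at 0.14 for the ATF4 arm and at -0.02 for the chaperone genes.

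Levels between genes can be set side by side only per length, here as CPM per kilobase of the longest annotated transcript. By that measure calreticulin's gene CALR was highest of the 36 in the empty-vector cells, at 455, and ERO1B lowest, at 0.936. HSP90B1 was at 223 and P4HB at 103 on this scale. With the canonical transcript's length instead they were at 530.1 and 347, so that HSP90B1 ranked above CALR. ERN1 and ERN2 were close to each other, at 2.10 and 2.43, and XBP1 and ATF4 stood at 56.9 and 166.

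Other genes of the same pathways were read from hand-written lists, against the same 42.7% of genes called. Of 30 further amino acid response and ATF4 target genes 29 were tested, with 16 lower and 3 higher and a median log2 fold change of -0.14. The smallest p-values belonged to STC2, the gene of the secreted glycoprotein stanniocalcin 2 (263 ± 18.7 to 162 ± 5.96 CPM; log2 fold change -0.70 ± 0.05, SE; adjusted p = 2.25e-10), to GPT2, an alanine transaminase gene (log2 fold change -0.40 ± 0.05, SE; adjusted p = 3.86e-06), and to SLC38A2, which encodes a neutral amino acid transporter (log2 fold change -0.22 ± 0.03, SE; adjusted p = 7.12e-06). The median log2 fold change of the 20 neighbours of STC2 was 0.14, and the part of the neighbourhood in its level was not tested. Of 20 cytosolic aminoacyl-tRNA synthetase genes, several of them known ATF4 targets, 13 were lower and 1 higher, with a median of -0.14. TARS, GARS and VARS, the threonyl, glycyl and valyl enzymes' genes, had log2 fold changes of -0.33, -0.32 and -0.29.

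The 15 genes of eIF2, its exchange factor eIF2B, its other kinases and its phosphatase had 6 lower and 1 higher. The eIF2 beta gene EIF2S2 (log2 fold change -0.36 ± 0.04, SE; adjusted p = 1.13e-07) and the eIF2B subunit gene EIF2B2 (-0.30) were lower, and EIF2AK2, the gene of the RNA-sensing kinase PKR, was higher (log2 fold change 0.36 ± 0.05, SE; adjusted p = 1.85e-05). Of 12 tested genes of other ER stress sensors, their bZIP factors and the proteases that cut them, 8 were higher and 2 lower, with a median of 0.17. Among them were ATF6B, the ATF6 paralog gene (log2 fold change 0.26 ± 0.04, SE; adjusted p = 2.00e-05), MBTPS2, the gene of the site-2 protease that releases ATF6 (0.30), and NFE2L1, of a membrane-bound factor that turns on proteasome genes (0.21).

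Among 41 other ER folding and translocation genes 15 were higher and 4 lower, with a median of 0.06. RPN1 and DDOST, of the enzyme that attaches sugar chains, and MLEC, of the ER lectin malectin, had log2 fold changes of 0.33, 0.26 and 0.33. Of 21 other degradation genes 9 were higher and 5 lower, with a median of 0.09. OS9, whose lectin delivers glycoproteins to the SEL1L complex, went from 191 ± 7.94 to 265 ± 10.96 CPM (log2 fold change 0.47 ± 0.04, SE; adjusted p = 9.86e-09), and EDEM3 and MARCH6, a mannosidase and a ubiquitin ligase gene, had log2 fold changes of 0.38 and 0.31.

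**Figure D4:**
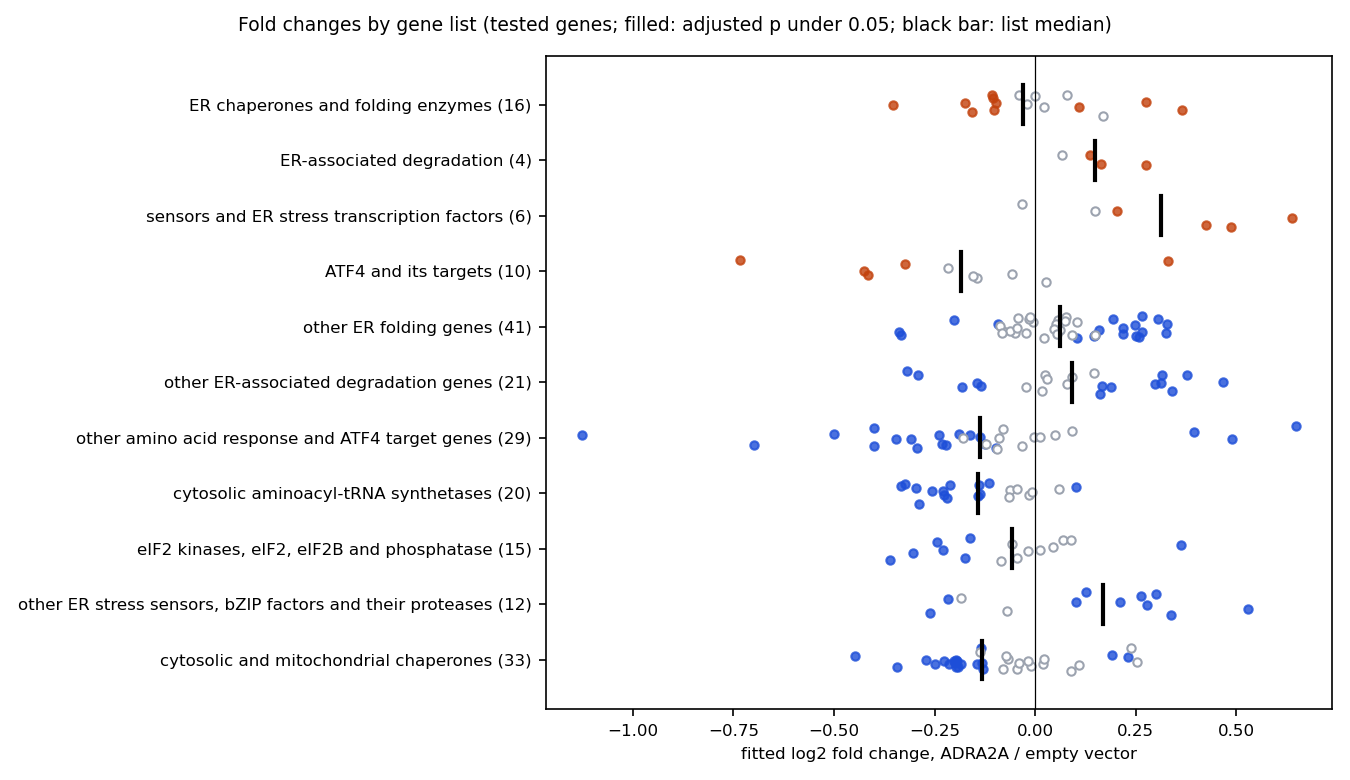
Fitted log2 fold changes of the tested genes of each list, with the number tested in brackets (orange, the 36 genes by role; blue, other lists; open circles, not called; black bars, list medians). The medians run from -0.19 for the ATF4 arm to 0.31 for the sensors and transcription factors, and that of the other amino acid response genes is -0.14.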

How the data were processed

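RNA of 8 CFPAC-1 samples was read on an Illumina NextSeq instrument (source: the labels' protocols). The deposited table holds estimated counts per gene and sample; cutadapt, STAR, RSEM, DESeq2 and the build hg38 are named, without roles, per the submitters' processing notes, and the annotation release and strand setting are not given in the sources used here. All 8 columns matched a sample by its label. Estimated counts were rounded to whole numbers. The main test was edgeR 4.0.16 in R 4.3.3 (filterByExpr, TMM, quasi-likelihood, group only), with Benjamini-Hochberg adjustment over 14785 genes and a threshold of 0.05; an SE is the absolute log2 fold change divided by the root of F. It was also run on simulated data in which far fewer genes changed than were called here, so that run does not check the scaling of these data. Alternatives were DESeq2 1.42.0, limma 3.58.1 (voom), other scalings and filters, a replicate block and each library left out. Coordinates, lengths and neighbours (the 10 tested genes on each side, fewer at a chromosome's end: 15 in all for TRIB3 and 18 for EDEM1) come from GENCODE 44, which matched 58517 of 58870 genes (99.4%). For transcripts shared with other genes, estimated counts depend on how reads were divided, which 7 of the 36 genes showed as counts that were not whole.

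The members and all gene lists were chosen with earlier results of these data known, so no list was tested as a set. Values per library are given, by rule, for called genes of each role that moved by 0.5 or more on the log2 scale, the 2 smallest p-values per role, and HSPA5, XBP1, ATF4 and DDIT3; those of CALR, PSAT1, PPP1R15A and ASNS were added after their values were seen. From each other list the 3 genes with the smallest p-values are named, and some further genes are named outside that rule.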

Additional observations from a re-analysis of the deposited data

Results flagged for a closer look

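In 2 of the 72 groups of 4 libraries formed by the 36 genes, 1 library stood far from the other 3 by Dixon's test, where chance gives about 1 group in 20. ERN1, the IRE1 alpha gene, was at 16.6 CPM in ADRA2A replicate 2 and at 19.0 to 19.4 CPM in the other ADRA2A libraries. ERN2, the IRE1 beta gene, was at 10.7 CPM in empty-vector replicate 1 and at 7.13 to 7.44 CPM in the other empty-vector libraries.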

How the results depend on the processing

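The number of the 36 genes called was 22 in the main analysis, 21 to 23 under the 7 other settings for tool, scaling, filter and block, and 20 to 22 when 1 library was left out; over all genes the counts were 6314, 5823 to 6550 and 5703 to 6042. Leave-one-out counts were 8 to 11 for the chaperones and folding enzymes (10 in the main analysis), 5 to 6 for the ATF4 arm (5) and 6 to 7 for the degradation, sensor and factor genes (7). Of 540 fold changes of single genes under an alternative, 522 stayed on their side of the threshold, 13 lost the call, 5 gained it and 0 of those called turned direction. Upper quartile factors moved the median of all genes to -0.02 and the share of calls that were higher from 50.6% to 46.4%. The main test did not pair the samples by replicate number. Over all tested genes, deviations of same-numbered libraries correlated between -0.04 and 0.07. That value does not describe the chaperone genes alone, where replicate 3 was the highest of its group for 13 of 16 (empty vector) and 12 of 16 (ADRA2A). With the replicate block 22 of the 36 genes and 6400 genes in all were called. The median level per length of the 36 genes was 24.7 CPM per kilobase with the longest transcript and 33.3 with the canonical transcript, an alternative added after seeing the data. The SE of the log2 fold change was largest for the scarce genes CHAC1 (0.14) and ERO1B (0.12).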

Other observations

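Chaperone genes of other compartments were lower more often than higher in the ADRA2A cells. Of 33 tested genes of cytosolic and mitochondrial chaperones 17 were lower and 2 higher at an adjusted p-value under 0.05 (edgeR). Of all genes tested, 21.1% were called as lower and 21.6% as higher, and the difference from these shares was not tested. Their median was -0.13 on the log2 scale. The smallest p-values belonged to CCT6A, a subunit gene of the ring-shaped chaperonin that folds actin and tubulin (343 ± 13.3 to 252 ± 12.7 CPM; log2 fold change -0.45 ± 0.04, SE; adjusted p = 2.16e-08), and to HSP90AA1 and HSP90AB1, the cytosolic Hsp90 genes (-0.34 and -0.27). The 2 genes that rose, named after their values were seen, were HSPA1A and HSPA1B (0.19 and 0.23), near-identical copies of the heat-inducible Hsp70 gene between which reads are hard to divide.

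Within the further amino acid response and ATF4 target genes, the largest decrease was that of ALDH1L2, a mitochondrial folate enzyme gene, also named after its values were seen. It was scarce, at 3.10, 4.41, 2.85 and 3.21 CPM in the empty-vector libraries and 1.73, 1.06, 1.43 and 1.96 CPM in the ADRA2A libraries (log2 fold change -1.13 ± 0.24, SE; adjusted p = 6.56e-04). The 3 genes of that list that rose were GDF15, a secreted stress hormone gene, KLHL24 and SLC1A4, a neutral amino acid transporter gene, with log2 fold changes of 0.65, 0.49 and 0.39. Of the serine pathway, PSPH, which follows PSAT1, was lower as well (log2 fold change -0.50 ± 0.09, SE; adjusted p = 8.66e-05), whereas PHGDH was not called. PSPH is named outside the rule of smallest p-values.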
